A study of Schizosaccharomyces pombe with 5 samples.

Results

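The last array of a nitrogen return time course in fission yeast, Schizosaccharomyces pombe, was set against the array of cells in steady vegetative growth. For each gene the log ratio of the 6 h array was subtracted from that of the vegetative array, so a positive difference means more RNA in vegetative cells. Genes were taken where a spot named 1 gene and both arrays gave a value, and repeated spots were averaged. This left 4755 of the 4796 genes with a value on any of the 5 arrays, and 4707 of all genes had a value on every array. The comparison asks how far cells that have left the resting state for 6 h still stand from a culture that has been dividing all along.

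All cells were of the wild-type laboratory strain L972, grown at 26 °C in the minimal medium EMM2. The reference of both arrays, marked with the dye Cy3, was RNA of cells kept for 48 h in EMM2 without a nitrogen source, which had come to rest in the state called G0 at near 80000000 cells per ml. The 6 h cells, marked with Cy5, were such G0 cells after 4 volumes of fresh EMM2 with nitrogen had been added, nominally 16000000 cells per ml at that moment. The vegetative cells, also marked with Cy5, came from a logarithmic culture, for which the protocol gives 2000000 cells per ml. The 6 h and vegetative cultures therefore differed in density, medium history and past starvation as well as in time of growth, and these cannot be told apart. Each array received 3 to 6 µg of polyadenylated RNA per dye, and there was 1 array per condition. The sources used here leave unsaid whether the G0 RNA of both arrays was a single preparation. The free-text descriptions of both samples name 2 h, and the titles, sources and treatment protocols were followed instead.

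Fission yeast without a mating partner answers nitrogen loss by dividing to small cells that stop before DNA replication. When nitrogen comes back, the cells rebuild ribosomes and grow before they replicate DNA, enter mitosis and split. Growing cells turn on waves of transcription in each cycle: the factor MBF acts at the start of DNA replication and forkhead factors act in mitosis. Daughter cells come apart when enzymes dissolve the septum between them.

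No difference below has a replicate array, so none was tested and the size rule was a difference of at least 1 on the log2 scale, which is 2-fold. The deposited ratios were taken as log2, and the base is an assumption. Error could be measured only between spots of the same array. The cell cycle kinase gene cdc2 had log2 ratios of 0.69 ± 0.31 at 6 h and 0.26 ± 0.20 in vegetative cells (SD, 16 spots). The beta-tubulin gene nda3 had 1.13 ± 0.14 at 6 h and 1.10 ± 0.13 in vegetative cells (SD, 15 spots). The RNA polymerase I gene nuc1 had 1.55 ± 0.22 at 6 h and 0.79 ± 0.20 in vegetative cells (SD, 16 spots). The difference at the same spot was -0.43 ± 0.38 for cdc2, -0.03 ± 0.17 for nda3 and -0.76 ± 0.28 for nuc1, with a pooled SD of 0.29. Over 12 positions that named no gene in any of the 16 blocks of spots, the pooled SD of the difference was 0.44. Nearly every other gene had 1 spot and thus no error of its own.

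The arrays were alike for most genes. The median difference was 0.00, with quartiles of -0.28 and 0.30, and 3527 genes (74.2%) lay within 0.5 of 0. By this rule 144 genes (3.03%) were higher in vegetative cells than at 6 h and 121 genes (2.54%) were lower. Both shares are the background for the list counts below. A 4-fold difference was passed by 25 genes on the higher side and 6 on the lower side. Just inside the limit stood ppr2 (1.002) and tim18 (1.001) on the higher side and mtx1 (-1.01) and SPAC57A10.07 (-1.01) on the lower. Just outside stood csc3 (0.998), SPAC10F6.17c (0.98), psm1 (-0.998) and drc1 (-0.997).

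**Figure D1:**
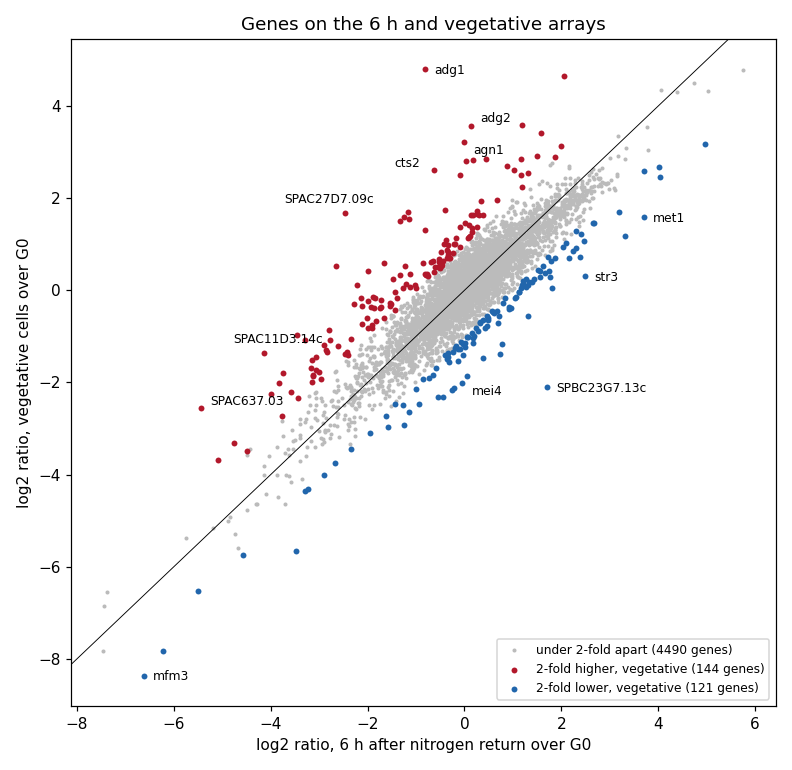
Each point is 1 of 4755 genes, with its log2 ratio over G0 cells at 6 h on the horizontal axis and in vegetative cells on the vertical axis. The line marks equal ratios, red points are the 144 genes called higher and blue points the 121 called lower, with adg1 (-0.82 and 4.80) the farthest from the line.

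The levels of the called genes relative to the resting state are given next. Within each set the direction between the arrays follows from the call itself. Over all 4755 genes the median log2 ratio was 0.04 at 6 h and 0.09 in vegetative cells. The 144 higher genes had a median log2 ratio of -1.07 at 6 h and 0.50 in vegetative cells. At 6 h 73 of them were 2-fold below G0, 60 were within 2-fold of it and 11 were above, while in vegetative cells 30 were below, 65 within and 49 above. The 121 lower genes had a median of 0.48 at 6 h and -0.70 in vegetative cells. Of these, 46 were 2-fold above G0 at 6 h and 13 in vegetative cells, and 53 were 2-fold below G0 in vegetative cells. Genes known only by a systematic identifier made up 53 of the 144 higher genes (36.8%), 22 of the 121 lower genes (18.2%) and 745 of all 4755 (15.7%). Genes were also looked up in 38 gene lists for cell cycle, growth, nutrient and stress functions. At least 1 list held 57 of the 121 lower genes, 26 of the 144 higher ones and 1423 of all 4755.

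The largest difference of all 4755 genes belonged to the surface glycoprotein gene adg1, which gave -0.82 at 6 h and 4.80 in vegetative cells, a difference of 5.62. It had also stayed at -0.27, -0.64 and -0.27 at 1, 2 and 3.5 h. In RNA of a whole culture, fewer cells in a stage of the cycle and less RNA per cell cannot be told apart.

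Genes of 2 enzymes that cut the septum and the wall around it were also among the 15 highest genes. The gene eng1, whose product cuts the beta-glucan of the primary septum, had 0.18 at 6 h and reached 2.82 in vegetative cells, a difference of 2.64. The gene agn1, whose alpha-glucanase cuts the wall around the septum, stood at -0.01 and 3.22, a difference of 3.23. Both had been further above G0 soon after nitrogen return than at 6 h: agn1 had 2.15 at 1 h, and eng1 had 1.55 at 2 h.

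Also among the 15 highest were adg2, which went from 0.14 at 6 h to 3.56 in vegetative cells, and adg3, which went from -1.34 to 1.503.

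Genes of the mitotic forkhead wave, which includes regulators of anaphase and septation, lay mostly above 0 by less than 2-fold. Of 23 listed genes on the array 21 had both values, 17 of them differed by more than 0 and the median was 0.42, but only 3 reached 2-fold and 0 were 2-fold lower. The gene slp1, whose product activates the anaphase-promoting complex, gave 0.87 at 6 h and 2.70 in vegetative cells. It was above G0 on all arrays and differed by 1.83.

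The gene etd1, which promotes septation, gave 0.15 and 1.27, a difference of 1.12, which fell to 0.89 with each block of spots centred on its median. The chitin synthase-like gene chs2 gave -0.62 and 0.39, a difference of 1.02, which fell to 0.96 with each array centred. Below the limit were spo12 (0.79), the kinesin genes klp8 (0.75) and klp5 (0.65), the polo kinase gene plo1 (0.57), the forkhead gene fkh2 (0.55), the securin gene cut2 (0.55) and the septation kinase gene sid2 (0.48). The septum myosin gene myp2 differed by 0.42 and stayed far below G0 on both arrays, at -3.29 and -2.86. On the other side stood klp6 (-0.78), the partner kinesin of klp5, and the wall gene psu1 (-0.52). The ring gene cdc15 and the forkhead gene sep1 had no vegetative value.

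Ring and septation genes were spread about 0. Of 41 genes of the contractile ring and the septation signalling network, 0 reached 2-fold in either direction and the median was -0.03. They ranged from rng3 (0.70), a myosin chaperone gene, to rng2 (-0.60), the gene of an IQGAP scaffold of the ring. Among 39 genes of septum and wall synthesis, the glucanosyltransferase gene gas2 was at the limit (1.88 and 2.88, a difference of 1.005 that centring brought under 2-fold) and both rgf1 (0.07 and -1.01), which activates the wall regulator Rho1, and cfh1 (1.32 and 0.17) were lower.

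Among 42 genes of mitotic kinases, cyclins and sister chromatid cohesion 0 were called. The cohesin subunit gene psm1 (-0.26 and -1.25) and wpl1 (-0.51 and 0.47), which releases cohesin from DNA, came closest from opposite sides. The mitotic inhibitor kinase gene wee1 went from -1.12 to -0.33. Of 56 kinetochore and spindle genes 3 were higher and 1 was lower, against 3.03% and 2.54% of all genes. The microtubule end-binding gene mal3 had -0.10 at 6 h and 1.37 in vegetative cells, a difference of 1.47. The centromere protein genes cnp20 (1.08) and mis6 (1.06) followed, while the microtubule polymerase gene alp14 differed by -1.02. With blocks centred, mal3 was the 1 gene of the list still 2-fold higher.

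Genes for starting DNA replication were nearly all within 2-fold between the arrays. Of 34 MBF targets and regulators 1 was 2-fold higher, 0 were 2-fold lower and the median was -0.06. That one was nrm1, the corepressor that shuts MBF off, with 0.35 at 6 h and 1.94 in vegetative cells. Members that differed more than most but within 2-fold included rad21 (0.76), msh6 (-0.705) and eso1 (-0.65). The 6 targets given next differed by 0.45 or less in either direction. The pooled spot SD was 0.29 over repeated genes and 0.44 over positions naming no gene, and neither measures spread between cultures. The cyclin gene cig2 gave 3.31 at 6 h and 2.86 in vegetative cells, the replication initiator gene cdc18 gave 1.85 and 1.55, and the ribonucleotide reductase gene cdc22 gave 1.20 and 0.85. The replication licensing gene cdt1 (0.99 and 1.21) and cdt2 (1.51 and 1.76) were higher in vegetative cells, and dut1 was equal to 2 decimals (1.45).

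Other MBF-linked genes that were high on both arrays were tos4 (2.61 and 2.57) and ams2 (2.18 and 1.90), the histone gene activator. The lowest of the list was dna2 (-0.78), a nuclease and helicase gene of Okazaki fragment processing. Among 41 replication machinery genes 0 were called in either direction, from sld5 (0.78) of the GINS complex to orc5 (-0.74) of the origin recognition complex. Core histone genes are transcribed with DNA replication, and the list also held the variant H2A.Z gene pht1. The 10 genes lay between -0.16 and 1.51 at 6 h and between -0.25 and 1.54 in vegetative cells. Their differences ran from -0.34 for hhf1 to 0.04 for hta1. Several are near-identical gene copies, which may share signal and are not separate measurements.

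**Figure D2:**
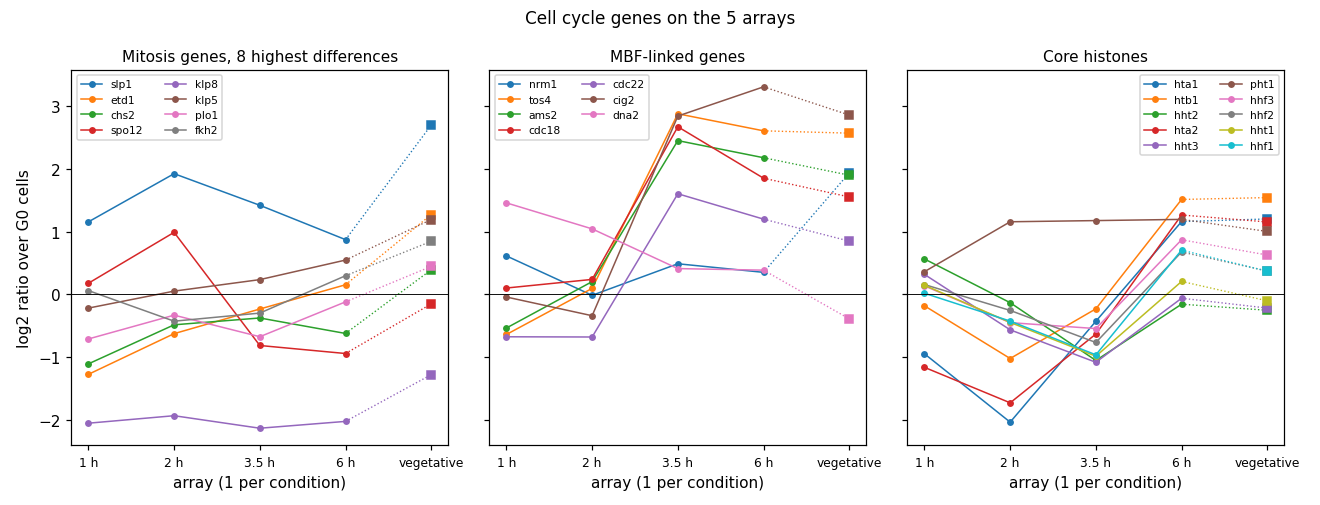
Log2 ratios over G0 cells (vertical axis) on the 5 arrays (horizontal axis, 1 array per condition) for the 8 mitosis genes with the highest differences, 7 MBF-linked genes and 10 histone genes; solid lines join the time course and dotted lines lead to the vegetative array. Of the genes drawn slp1 (0.87 to 2.70) and nrm1 (0.35 to 1.94) rise most from 6 h to vegetative cells, whereas the histones differ by 0.34 or less.

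Mating and meiosis genes were called on the lower side alone, with 8 of 50 listed genes 2-fold lower in vegetative cells, 0 higher and a median of -0.15. Starvation induces these genes, and growing cells keep them off. The gene ste11, the master activator of sexual differentiation, gave -0.55 at 6 h and -2.32 in vegetative cells, a difference of -1.76. The gene mei4, a forkhead activator of middle meiosis, was near G0 at 6 h (-0.04) and far below it in vegetative cells (-2.004). The genes of the pheromone M-factor were already among the lowest of the array at 6 h, with mfm3 at -6.61 and mfm1 at -6.22, and lower still in vegetative cells, at -8.36 and -7.83. These near-identical copies may share signal.

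The other mating genes past the limit act in courtship. They were the P-factor receptor gene mam2 (-4.56 and -5.75), the M-factor exporter gene mam1 (-1.10), the mating type regulator gene map1 (-1.10) and dni2 (-1.24), which acts in cell fusion. With each array, or each block, centred on its median, 10 genes of the list were 2-fold lower, and with arrays also scaled 1 gene was higher. Meiotic recombination genes, a list added after its values were seen, gave 2 lower genes of 9: rec7 had 0.04 at 6 h and -1.86 in vegetative cells, and rec25 had -1.59 and -2.96. The meiotic regulator gene cuf2, one of the 15 lowest genes, gave -0.22 and -2.12. A larger set of 91 genes named only for being higher in meiosis had a median of 0.08. It gave 3 higher genes and 2 lower ones, near the 3.03% and 2.54% of all genes. One of the lower genes, mug15 (3.32 and 1.17), was among the 15 lowest of all.

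Genes for using nitrogen sources were also lower in vegetative cells where they differed, with 6 of 49 lower, 0 higher and a median of -0.21. With arrays centred and scaled 11 were lower. The largest difference belonged to gdh2, the glutamate dehydrogenase gene that releases ammonium, with 0.73 at 6 h and -1.38 in vegetative cells. The gene glt1 for glutamate synthase, which takes up ammonium together with glutamine synthetase, gave 0.91 and -0.36. The amino acid permease gene per1 gave -0.64 and -1.85, isp7 gave -1.95 and -3.09, and the oligopeptide transporter gene isp4 gave -2.68 and -3.74, so these 3 were below G0 on both arrays. The remaining member past the limit, bsu1 (4.96 and 3.17), carries vitamin B6 and is described with the vitamins. Autophagy genes, which recycle nitrogen in starved cells, stayed low on both arrays, with medians of -1.34 at 6 h and -1.42 in vegetative cells. Of 34 of them atg101 was higher (1.10) and atg9 (-1.10) and atg12 (-1.03) were lower.

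Biosynthesis genes were shifted towards the 6 h cells. Of 75 amino acid synthesis genes 64 had a difference below 0, with a median of -0.40, and 9 were 2-fold lower and 0 higher. With arrays centred and scaled to 1 median absolute deviation, 19 were lower and 1 was higher. Their median ratio was 1.31 at 6 h and 0.97 in vegetative cells, so as a list they were above G0 on both arrays. Past the limit were aro1 (0.97 and -0.39), which encodes a multi-step enzyme of aromatic amino acid synthesis, the lysine gene lys1 (1.74 and 0.41), the arginine genes arg4 (-1.16) and arg12 (-1.08), ser1 (-1.08) and glt1. The other 3 belong to sulfur assimilation.

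Sulfur assimilation, which turns sulfate into sulfide for cysteine and methionine, had 6 of 26 genes lower, 0 higher and a median of -0.34. The gene met1, which makes the siroheme cofactor of sulfite reductase, gave 3.71 at 6 h and 1.58 in vegetative cells, a difference of -2.12. The sulfite reductase genes met10 (2.31 and 0.92) and sir1 (1.86 and 0.69) and the adenylylsulfate kinase gene met14 (2.10 and 1.02) were lower too. The gene pof1 was lower as well (0.69 and -0.71), and encodes an F-box protein that marks the sulfur regulator Zip1 for destruction. The sixth listed gene, str3, is a transporter and not an enzyme of the pathway. The homocysteine synthase gene met17 was the highest of the list on both arrays (5.76 and 4.78) and missed the limit at -0.98.

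Nucleotide synthesis genes were lower in vegetative cells too, with 24 of 26 differences below 0, a median of -0.49, 4 genes lower and 0 higher. These 4 were ade3 (1.65 and 0.38), ade9 (0.71 and -0.55), the first pyrimidine gene ura1 (1.31 and 0.12) and the GMP synthase gene gua2 (2.03 and 0.95). The fatty acid synthase gene fas1 (1.399 and 0.18) and the pyruvate carboxylase gene pyr1 (0.24 and -0.81) were lower as well.

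Gene length moved with these counts. The longest 10% of genes, 476 in all, had a median difference of -0.25 and 25 lower genes (5.25%), while the medians of the other 9 length classes lay between -0.09 and 0.09. That class held 4 of the 9 lower amino acid genes (aro1, lys1, glt1 and arg4), 3 of the 4 lower nucleotide genes (ade3, ade9 and ura1), and gdh2, ste11, mam1, sir1, fas1 and pyr1. Without it 5 amino acid genes, 1 nucleotide gene, 6 mating genes and 4 nitrogen genes were lower, with list medians of -0.37, -0.45, -0.11 and -0.21. The part of gene length in the result was not tested.

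**Figure D3:**
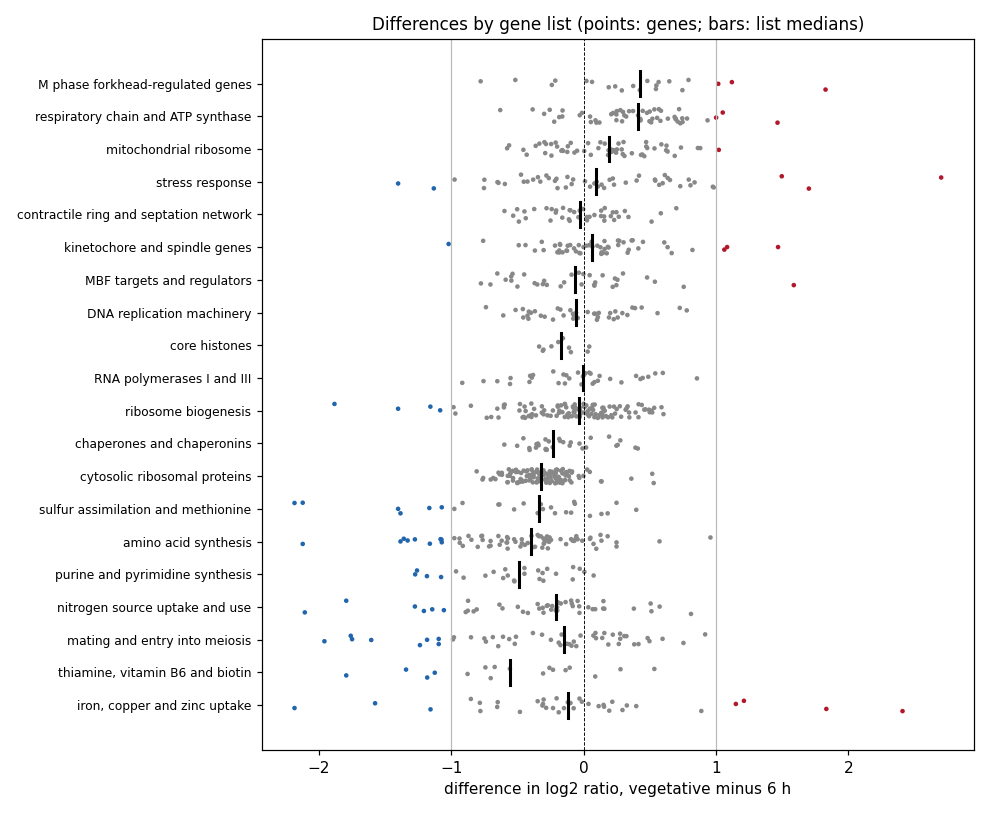
Each point is the difference in log2 ratio (vegetative minus 6 h, horizontal axis) of 1 gene in 1 of 20 gene lists (vertical axis); black bars are list medians, grey lines mark the 2-fold limits, and red and blue points lie past them. The list medians lie between -0.56 and 0.42.

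Ribosomal protein genes differed little. Of 125 genes listed as cytosolic ribosomal proteins 0 were called in either direction. Their median ratio was 2.20 at 6 h and 1.92 in vegetative cells. The shift was small but shared, since 118 of the 125 genes had a difference below 0. Over all 125 the median was -0.32, and 98 lay within 0.5 of 0. With blocks centred 1 of them was 2-fold lower, and with arrays centred and scaled 3 were. The lowest was rpp201 (2.59 and 1.78), a gene of the ribosomal stalk. Paralogous ribosomal protein genes are near-identical in sequence and may share signal. The list was kept as drawn up, and its symbols rpp1 (0.53) and rpp40 (-0.17) may name other kinds of gene.

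Genes that build ribosomes lay about 0. Of 120 ribosome biogenesis genes the median difference was -0.04, 0 were higher and 4 lower, against 3.03% and 2.54% of all genes. The RNA helicase gene dbp7 (1.13 and -0.03) and noc4 (0.80 and -0.28) act in ribosome assembly, while the symbols lsg1 (-1.88) and rrp1 (-1.40) name other kinds of gene in this species. Among 35 RNA polymerase I and III genes 0 were called, from rpc1 (-0.92) to rpa34 (0.86). The translation termination gene sup35 (1.13 and -0.04) was the 1 lower gene of 41 translation factors, and fell under 2-fold with each block centred.

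Uptake genes for metals were called in both directions. Of 37 genes listed for iron, copper and zinc, 4 were higher and 3 lower in vegetative cells, with a median of -0.12. The list was kept as drawn up and holds the biotin importer gene vht1 (-0.23). Its members trk1, trk2, sod2 and pex7 may also have other roles, and none of these was called. Over all genes 3.03% were higher and 2.54% lower. The ferric reductase gene frp1, which prepares iron for uptake, gave 0.44 at 6 h and 2.85 in vegetative cells, a difference of 2.41. The zinc importer gene zrt1 gave 1.58 and 3.42, and the copper importer gene ctr4 differed by 1.15. The vacuolar iron carrier gene pcl1, the neighbour of frp1 on chromosome II, gave -0.20 and 1.01.

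Other iron genes were lower in vegetative cells. The siderophore transporter gene str1 gave 4.03 at 6 h and 2.45 in vegetative cells, and its relative str3 gave 2.49 and 0.31. The mitochondrial iron carrier gene mrs3 gave 1.79 and 0.63. The ferroxidase gene fio1 (3.08 and 2.23) and the siderophore synthesis gene sib1 (0.06 and -0.73) stayed within 2-fold. Other siderophore genes did not share that direction: sib3 (-0.48 and 0.41) and str2 (-0.76 and -0.36) lay higher in vegetative cells, and sib2 differed by -0.19. The permease gene fip1, partner of fio1, had 1.91 at 6 h and no vegetative value. The regulators fep1 (-0.12), php4 (-0.31) and cuf1 (0.04) differed by about the spread of repeated spots or less.

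**Figure D4:**
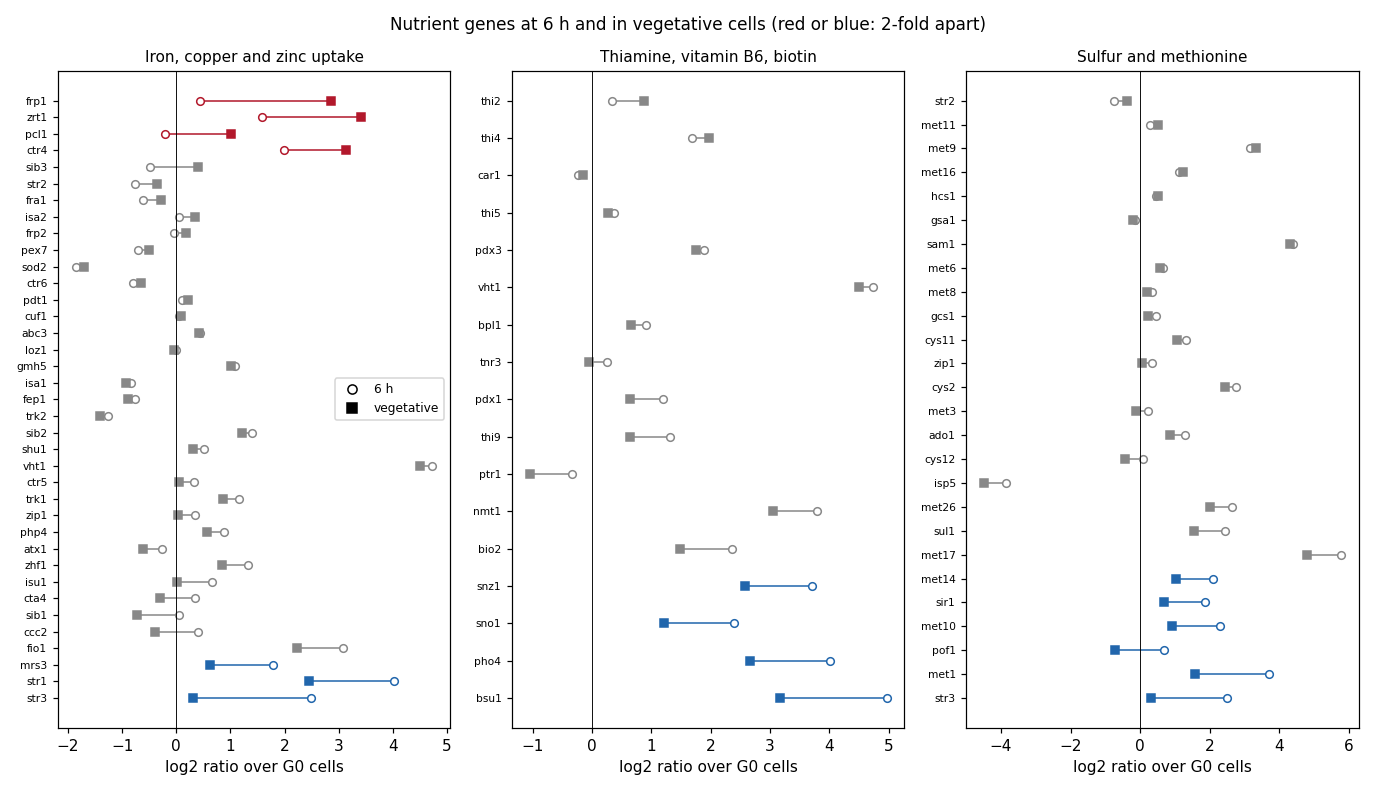
Log2 ratio over G0 cells (horizontal axis) at 6 h (open circles) and in vegetative cells (filled squares) for each gene with both values in the lists for metals, vitamins and sulfur (vertical axis); coloured pairs are at least 2-fold apart. In the metal list frp1, zrt1, pcl1 and ctr4 move right from 6 h to vegetative cells and str3, str1 and mrs3 move left, whereas all coloured vitamin and sulfur genes move left.

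Most genes of the vitamin list had a higher ratio at 6 h, and the list medians were 1.69 at 6 h and 1.21 in vegetative cells. Of 17 genes listed for thiamine, vitamin B6 and biotin 14 had a difference below 0, the median was -0.56, 4 were 2-fold lower and 0 higher. The vitamin B6 importer gene bsu1 gave 4.96 at 6 h and 3.17 in vegetative cells. The vitamin B6 synthesis pair snz1 (3.71 and 2.58) and sno1 (2.40 and 1.21) and the thiamine-repressed phosphatase gene pho4 (4.01 and 2.67) followed. The thiamine synthesis genes nmt1 (3.80 and 3.06) and thi2 (0.34 and 0.87) went in opposite directions within 2-fold. Below G0 on both arrays were car1 (-0.24 and -0.15) and ptr1 (-0.34 and -1.05). The list was kept as drawn up, and some of its symbols name other kinds of gene in this species. Among them car1 now names another gene than the vitamin B6 importer, and pdx1 was also listed for the tricarboxylic acid cycle. The biotin importer gene vht1 was nearly equal (4.73 and 4.50), and the biotin synthase gene bio2 differed by -0.88. Of 13 phosphate genes pho4 and the phosphatase gene pho2 (0.47 and -0.55) were lower, whereas the phosphate importers pho841 (-0.39) and pho842 (-0.04) were not called. The difference of pho2 fell under 2-fold with blocks centred.

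Stress genes were called in both directions. Of 52 listed genes 3 were higher in vegetative cells and 2 lower, against 3.03% and 2.54% of all genes. The median difference was 0.09, with median ratios of -0.60 at 6 h and -0.43 in vegetative cells. The catalase gene ctt1 gave -2.77 at 6 h and -1.07 in vegetative cells, and the heat shock gene hsp9 gave -2.83 and -1.33, so both remained below G0. The gene rds1 gave -1.15 and 1.55, a difference of 2.70. Lower in vegetative cells were srx1 (0.48 and -0.65), a sulfiredoxin gene of peroxide defence, and pof1. The metallothionein gene zym1, chosen after its values were seen, was at -7.39 and -6.55. Chaperone genes (median -0.23, 31 genes) and proteasome genes (median 0.09, 38 genes) had 0 called in either direction.

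Respiration genes were shifted up in vegetative cells, mostly by less than 2-fold. Of 55 genes for the respiratory chain and ATP synthase 45 had a difference above 0, with medians of -0.16 at 6 h and 0.30 in vegetative cells and a median difference of 0.41. The 3 called genes were gut2 (-0.38 and 1.08), the mitochondrial glycerol phosphate dehydrogenase gene, the succinate dehydrogenase gene sdh2 (-0.75 and 0.30) and tim18, listed under its older name sdh4 (-0.46 and 0.54). With arrays or blocks centred, 1 of the 55 was 2-fold higher. The cytochrome c gene cyc1 gave 0.50 and 1.28. Of 57 mitochondrial ribosome genes mrp21 (1.02) was called, which fell under 2-fold with arrays or blocks centred, and the median of 0.19 became -0.01 with blocks centred.

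Carbon genes differed singly. Of 22 glycolysis and fermentation genes adh4 (1.21 and 0.13), an alcohol dehydrogenase gene, and the pyruvate decarboxylase gene pdc201 (-5.50 and -6.53) were lower, and the main alcohol dehydrogenase gene adh1 was at 0.27 and 1.05. Of 8 hexose transporter genes ght2 was higher (-1.90 and -0.75) and ght7 lower (0.01 and -1.15), while the other 6 lay between -0.37 and 0.55. The difference of ght2 fell under 2-fold with blocks centred. The gene zwf1 (1.05 and -0.16), which opens the pentose phosphate pathway, was lower.

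Some of the higher genes were neighbours on a chromosome. RefSeq gene order (assembly ASM294v3) put 26 of the 144 higher genes in 9 runs of adjacent protein-coding genes and 7 of the 121 lower genes in 3 runs. Over all 4755 genes 3.03% were higher and 2.54% lower. How many runs those shares alone would give was not worked out, so the run counts have no background. The longest run held 8 genes on chromosome I, from SPAC11D3.06 to SPAC11D3.15, the genes numbered 43 to 50 of 2333 in order. After 2 genes that were not higher, the pair SPAC11D3.18c and dgc1 followed, so 10 of the 12 genes numbered 43 to 54 were 2-fold higher. The spots of those 10 higher genes were spread over 7 blocks of the array. The genes SPAC11D3.06, SPAC11D3.09 (1.14) and SPAC11D3.10 shared block 11, which had the highest block median of the difference (0.20). The run is not given here with blocks centred. The medians over the 12 genes were -0.87, -0.54, -0.13 and -2.85 at 1, 2, 3.5 and 6 h and -1.20 in vegetative cells. The 6 h median was the lowest. Because the stretch was chosen by its calls, a 6 h median below the vegetative one follows from that choice. The choice also favours low 6 h values against the other arrays.

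Within that stretch 4 genes were at or above G0 at 3.5 h, to 2 decimals, and far below it at 6 h. SPAC11D3.14c had 1.20 at 3.5 h and -4.14 at 6 h, against -1.37 in vegetative cells. On the same arrays dgc1 gave 1.21, -3.30 and -1.08. SPAC11D3.15 gave 0.91, -2.80 and -0.86, and SPAC11D3.18c gave 0.00, -2.90 and -1.18. In contrast, SPAC11D3.06 (0.17 at 6 h and 1.64 in vegetative cells) and hsp3104 (0.30 and 1.64) were above G0 on both arrays. The 2 genes of the stretch that were not higher were SPAC11D3.16c (-0.13) and SPAC11D3.17 (-0.92). Shared signal between overlapping transcripts was not tested.

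**Figure D5:**
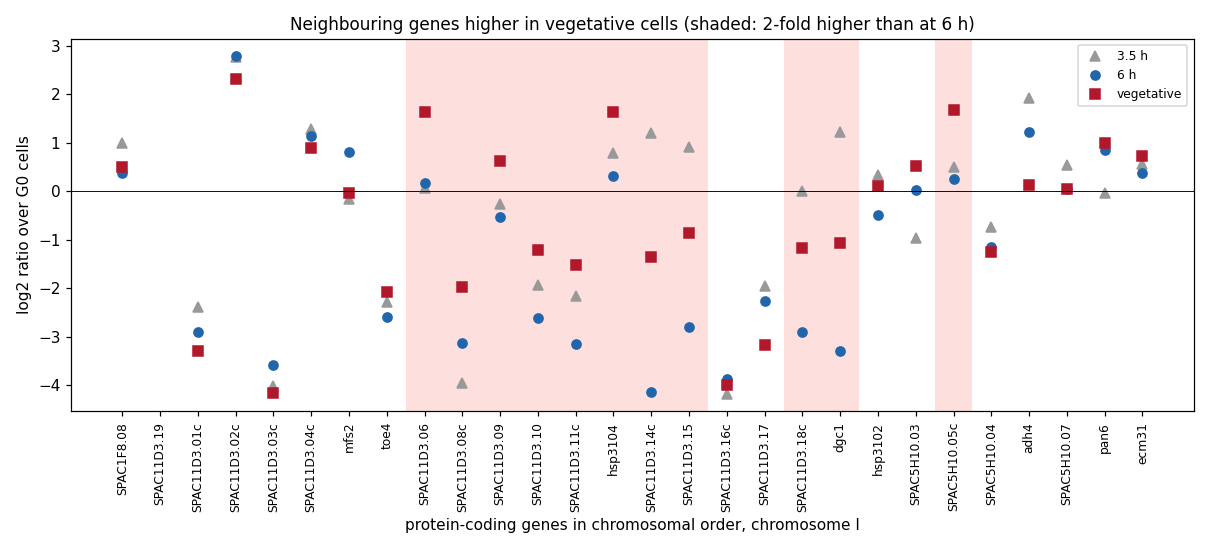
Log2 ratio over G0 cells (vertical axis) at 3.5 h, at 6 h and for vegetative growth, for protein-coding genes in chromosomal order on chromosome I (horizontal axis); shading marks genes 2-fold higher in vegetative cells than at 6 h. SPAC11D3.14c, SPAC11D3.15, SPAC11D3.18c and dgc1 have their 6 h value (-4.14 to -2.80) below both the 3.5 h and the vegetative value.

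Other adjacent pairs joined genes already described. The mitotic gene slp1 lies beside eng1, and frp1 beside pcl1. A run of 3 on chromosome II held SPBC36.01c (2.33), SPBC36.02c (1.20) and the transporter gene mfs3 (1.98), each of them below G0 at 6 h. Another held meu25 (1.00), uds1 (2.25) and SPBC27.05 (1.97). Pairs were plb4 (2.50) with nhe1 (1.75), SPAC212.01c (1.74) with ftm1 (1.27), and rds1 with SPAC343.20 (1.68). Among lower genes, pof1, mug15 and SPAC57A10.07 were adjacent, as were SPBC21H7.03c (-1.20) and dbp7 (-1.16), and cuf2 and sup35. The spots of dbp7, cuf2 and sup35 all lay in block 13, which had the lowest block median of the difference (-0.29). With blocks centred sup35 fell under 2-fold, so that pair was lost.

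Genes near chromosome ends were more often higher than the rest. Of 99 measured genes among the 20 nearest an end, 18 were higher (18.2%) and 3 lower, against 96 higher (2.29%) and 106 lower of 4185 genes more than 100 genes from an end. Between these, 6 of 98 genes at places 21 to 40, 15 of 119 at places 41 to 60 and 7 of 228 at places 61 to 100 were higher. The share at places 41 to 60 holds the stretch on chromosome I. All 6 ends had at least 1 higher gene among the nearest 20, from 1 of 18 at the first end of chromosome III to 5 of 18 at the first end of chromosome I and 4 of 14 at the last end of chromosome II. The similarly named ftm1, ftm4 and ftm5 were among the higher genes at different ends. Shared signal between related genes at different ends was not tested, so these may not be separate measurements. In the wtf family of meiotic drive genes 22 of 24 differences were above 0 (median 0.38) and in 11 copies of the transposon Tf2 all were below 0 (median -0.42), with 0 called in either family. All 11 Tf2 copies were among the longest 10% of genes, whose median difference was -0.25, and the part of length was not tested. Members of both families are near-identical in sequence and are not separate measurements.

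Most of the other extreme genes belonged to no list. Among the 15 highest genes SPAC27D7.09c gave -2.46 at 6 h and 1.67 in vegetative cells, a difference of 4.13 and second only to adg1. It had stood at 2.02 at 1 h. The gene cts2 gave -0.63 and 2.62, SPBPB7E8.01 gave -2.66 and 0.52, and SPCC306.11 gave -1.16 and 1.70. SPBPB7E8.01 had been at 2.84 and 2.89 at 1 and 2 h, so its low value was reached later.

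The others of the 15 highest were cbm1 (-1.24 and 1.60), rid1 (0.02 and 2.81), SPAC637.03 (-5.45 and -2.56) and SPBPB10D8.02c (2.06 and 4.65). SPAC637.03 stayed far below G0 on both arrays and SPBPB10D8.02c far above. On the lower side SPBC23G7.13c gave 1.70 at 6 h and -2.11 in vegetative cells, a difference of -3.81 and the smallest of all genes. The others of the 15 lowest not yet described were SPBC19C7.04c (-3.47 and -5.66), SPCC18.03 (-0.27 and -2.17), SPCPB1C11.03 (-0.44 and -2.33), the peroxisomal import receptor gene pex5 (0.78 and -1.16) and the gene ppr3 of a mitochondrial RNA-binding protein (0.38 and -1.47). For genes known only by a systematic identifier no role is given.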

How the data were processed

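RNA of 2 cell populations was read on 1 array each against nitrogen-starved G0 cells. The authors deposited log ratios for each spot, taken here as log2 by assumption, with the direction (Cy5 over Cy3) per the labels. How images were read, background corrected and values normalized was not given in the sources used here. No intensities were used, so dim spots could not be filtered and the number of arrays limits the precision.

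Of 5184 spots 4865 named 1 gene in the platform annotation, and 4839 of these were matched to RefSeq (assembly ASM294v3) by Entrez identifier, 13 by symbol and 11 by synonym. Of 16 nda3 spots, 1 that the authors' own average leaves out was left out. Spots of a gene were averaged, the 6 h ratio was subtracted from the vegetative ratio, and a difference of at least 1 or at most -1 was called, with no test. The step that makes the calls was run on simulated data with known differences, which gives no error for the calls. Python 3.11.15, numpy 2.4.6, pandas 2.3.3 and matplotlib 3.10.9 were used.

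The comparison, the gene lists and their members were chosen with earlier results of these data known. Named genes were the 15 highest and 15 lowest, every member of 7 short lists (forkhead, MBF, histones, vitamins, metals, phosphate, hexose), the 6 largest absolute differences of other lists, the 3 genes spotted in every block, and neighbours called the same way. A further short list is not reported here. Some named by the rule are left unnamed, and any other gene, those beside the limit included, was chosen after its values were seen. A planned search of promoters for motifs was not run, because no promoter sequence was used here.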

Additional observations from a re-analysis of the deposited data

How the results depend on the processing

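The counts depended most on the limit. At 1.5-fold 487 genes were higher and 455 lower, and at 3-fold 47 and 21. With arrays centred and scaled to 1 median absolute deviation, 208 were higher and 252 lower, which included all 144 and all 121 genes called before. With arrays centred the counts were 128 and 147, and with each block of spots centred 123 and 131, so the larger side changed from higher to lower. The scaling also raised list counts, from 3 to 6 higher and 2 to 4 lower stress genes, 3 to 6 lower metal genes and 4 to 7 lower ribosome biogenesis genes. Of the genes called before, 117 of 144 and 102 of 121 were kept with blocks centred. Medians or first spots of repeated genes, or only genes with all values, gave 143 or 144 higher and 120 to 122 lower. In alternatives chosen after seeing the data, 133 and 96 genes were called without the longest 10% of genes, and 105 and 109 without the 60 genes nearest each chromosome end. Of 38 list medians 13 changed sign in at least 1 setting, all of them within 0.19 of 0 as reported, and 0 of the named genes past 2-fold did. Block medians of the difference lay between -0.29 and 0.20, so centring could hardly turn the sign of a 2-fold difference. No paired analysis was possible because each condition has 1 array, which also leaves no replicate to set aside.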

Other observations

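Some lists outside the main groups held single called genes. Among 18 flocculin and adhesin genes, whose products make cells stick together, pfl3 had a log2 ratio of 0.02 at 6 h and 1.47 in vegetative cells, and the median difference was 0.27. Of 36 actin cytoskeleton genes pob1 (0.60 and -0.48) was lower, a call lost with blocks centred, and of 47 sterol and fatty acid genes only fas1 was called. The sterol genes erg31 (1.76 and 2.73) and erg1 (0.30 and 1.20) came near the limit on the higher side. Of 17 genes listed as vacuolar and secreted hydrolases pgp1 (-0.13 and -1.27), pho2 and fma2 (1.21 and 0.20) were lower and 0 were higher. With blocks centred pgp1 alone was 2-fold lower. Whether the products of these called genes are vacuolar or secreted was not checked. The members isp6 (-0.32), psp3 (-0.02), cpy1 (0.34), ape2 (0.03) and ams1 (-0.02) were not called.

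Of 319 spots that name no gene or several, 316 had both values, with differences from -1.48 to 2.23. Of these, 11 were 2-fold higher in vegetative cells and 5 lower, against 3.03% and 2.54% of all genes.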
